A study of Mus musculus with 37 samples.

Results

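Natural killer cells of the pregnant mouse uterus (uNK cells) were compared by bulk RNA-seq according to the inhibitory receptors they carry, and 8 genes were followed through every library: Scin, Basp1, Tdrd9, Fam178b, Tmem40, Aqp9, Tmsb15a and Bri3bp. They are 8 of the 53700 genes counted in each library. They were chosen because they had been seen to fall strongly in educated cells of these same libraries, so their high level in uneducated cells is a property of the choice and is described here without a test. The choice rests on a list of names and has no numerical limit. The data hold 37 libraries in 5 groups, all from C57BL6 mice at gestation day 9.5 to 10.5. WT mice gave 9 libraries of uneducated cells (Ly49C/I- NKG2A-), 9 of NKG2A+ cells (Ly49C/I-) and 6 of Ly49C/I+ cells (NKG2A-). Mice labelled NKG2A KO gave 8 libraries of uneducated cells and 5 of Ly49C/I+ cells. All cells had been sorted as live, CD45+ and NKp46+, without CD3, CD4 or CD8 and without high CD11b, among other gates, and cells carrying both receptors were not collected. How the NKG2A KO was made and whether a library came from 1 animal or from a pool are not stated in the labels or methods, so the p-values below measure the spread between these libraries, which may be partly technical.

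Education is the process by which NK cells gain responsiveness through inhibitory receptors that bind the body's own MHC class I molecules. NKG2A pairs with CD94 and binds the non-classical molecule Qa-1, and Ly49C and Ly49I bind classical MHC class I. Cells with neither receptor are called uneducated here, as in the study. uNK cells gather in the decidua in the first part of pregnancy, where they take part in the remodelling of maternal vessels. The 8 genes belong to no single pathway. Scin encodes scinderin, a calcium-dependent protein of the gelsolin family that severs and caps actin filaments. Tmsb15a encodes a beta thymosin, a small peptide that binds actin monomers. Basp1 encodes a myristoylated protein of the inner plasma membrane, first found in nerve endings, which is also known as a transcriptional corepressor. Tdrd9 encodes a Tudor domain helicase of the piRNA pathway, which silences transposons in germ cells. Aqp9 encodes a channel for water, glycerol and other small neutral solutes. Bri3bp and Tmem40 encode membrane proteins, the first named for binding BRI3. Fam178b encodes a little studied protein related to SLF2.

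In the GENCODE M21 annotation of GRCm38 all 8 are protein-coding genes. Chromosome 12 carries Scin (ENSMUSG00000002565, 40059769 to 40134228, minus strand) and Tdrd9 (ENSMUSG00000054003, 111971559 to 112068854, plus strand). Basp1 (ENSMUSG00000045763) is on chromosome 15 (25363277 to 25413764, minus strand). Fam178b (ENSMUSG00000046337) is on chromosome 1 (36562692 to 36683183, minus strand), where its exons overlap those of D430040D24Rik on the other strand. Since it is not stated whether the counting used strand, reads of these 2 genes may not have been told apart in the overlap. Tmem40 (ENSMUSG00000059900) is on chromosome 6 (115729131 to 115762410, minus strand) and Aqp9 (ENSMUSG00000032204) on chromosome 9 (71110659 to 71168682, minus strand). Tmsb15a (ENSMUSG00000060726) is on chromosome X (135718667 to 135725261, minus strand) and Bri3bp (ENSMUSG00000037905) on chromosome 5 (125441568 to 125460370, plus strand). Of the stretches of 50 bases in their transcripts, at most 1.23% (Bri3bp) also occurred in a transcript of another gene.

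Because several of these genes moved together between libraries, as described further on, their promoters were searched for the core letters of 6 transcription factor families. The sequences are RefSeq promoters of GRCm38.p6, 250 bases before and 50 after a transcription start, and the table held 12 promoters for the 8 genes among 32851 in all. Searched on both strands were TGTGGTT for RUNX factors, AGATAA for the GATA family, GGTGTGA for T-box factors such as Eomes, GGAAGT for ETS factors, TGACTCA for the AP-1 dimers and CACGTG for E-box binding factors, the last reading the same on both strands. No 2 of these matches overlapped in the sequences below. AP-1 letters occurred in 1 promoter each of Aqp9, Tmem40 and Tmsb15a, and in 5.20% of all promoters. E-box letters occurred in Tdrd9 and in 2 overlapping promoters of Fam178b, against 7.15% of all promoters. ETS letters were found for Fam178b and Tmem40 and in 23.8% of all promoters, and RUNX, GATA and T-box letters in none of the 12, against 5.27%, 11.2% and 3.98% of all. The 250 bases before the start are shown for the 3 genes with AP-1 letters, for Tdrd9 with its E-box letters, and for Bri3bp, which had none of the motifs although it varied closely with Tmem40 and Aqp9 in WT uneducated cells. They are written 5′ to 3′ on the strand of the gene, with capitals for matched letters. A match is a description of the letters only.
Tmem40 promoter, chr6:115762467-115762716, minus strand: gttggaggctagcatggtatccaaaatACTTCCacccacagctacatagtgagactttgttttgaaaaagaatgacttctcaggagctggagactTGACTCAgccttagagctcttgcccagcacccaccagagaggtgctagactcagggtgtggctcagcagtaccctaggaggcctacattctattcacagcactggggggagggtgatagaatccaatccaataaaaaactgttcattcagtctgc
Aqp9 promoter, chr9:71162634-71162883, minus strand: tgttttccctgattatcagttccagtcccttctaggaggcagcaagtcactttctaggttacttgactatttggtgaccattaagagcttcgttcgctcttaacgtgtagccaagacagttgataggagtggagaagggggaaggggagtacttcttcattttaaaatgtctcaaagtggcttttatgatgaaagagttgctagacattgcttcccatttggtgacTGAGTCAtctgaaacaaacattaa
Tmsb15a promoter, chrX:135720674-135720923, minus strand: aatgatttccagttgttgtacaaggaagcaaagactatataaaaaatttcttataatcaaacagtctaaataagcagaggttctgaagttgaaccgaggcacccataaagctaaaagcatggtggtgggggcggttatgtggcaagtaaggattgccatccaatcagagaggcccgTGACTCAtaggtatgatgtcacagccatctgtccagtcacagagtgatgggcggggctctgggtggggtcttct
Tdrd9 promoter, chr12:111971309-111971558, plus strand: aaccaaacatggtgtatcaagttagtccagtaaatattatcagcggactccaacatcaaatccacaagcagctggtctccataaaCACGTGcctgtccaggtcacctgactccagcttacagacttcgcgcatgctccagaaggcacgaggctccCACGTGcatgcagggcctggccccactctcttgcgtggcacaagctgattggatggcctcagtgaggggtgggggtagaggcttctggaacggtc
Bri3bp promoter, chr5:125441318-125441567, plus strand: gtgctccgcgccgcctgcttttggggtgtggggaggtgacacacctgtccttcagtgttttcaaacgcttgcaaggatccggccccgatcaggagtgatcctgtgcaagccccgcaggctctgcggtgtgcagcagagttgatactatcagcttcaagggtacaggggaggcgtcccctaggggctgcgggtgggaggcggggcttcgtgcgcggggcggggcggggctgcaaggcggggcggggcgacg

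Each library held 13287163 to 18875033 reads assigned to genes, with a median of 17273311, and 13982 to 17859 genes had a count. The fewest genes were detected in library 9 of the WT NKG2A+ group and in library 5 of the WT uneducated, WT Ly49C/I+ and NKG2A KO Ly49C/I+ groups (13982 to 14197). WT uneducated library 5 also carries a second label line that repeats the one of library 4, although no 2 libraries held identical counts. Klrc1, which encodes NKG2A, stood between 495 and 753 CPM (counts per megaread, with library totals scaled by edgeR's TMM) in the NKG2A+ libraries and at or below 13.9 CPM in every other library. Since the NKG2A KO libraries were all sorted as NKG2A-, this gene does not check their genotype. Klra9, which encodes Ly49I, lay between 452 and 1137 CPM in the Ly49C/I+ libraries and at or below 124 CPM elsewhere, whereas Klra3, which encodes Ly49C, averaged 54.9 CPM in the WT Ly49C/I+ libraries and 138 CPM in the uneducated ones. The Ly49 genes are near-identical copies whose reads may be split between them. All 11 NK cell markers were counted in every group, with summed levels of 16556 to 23461 CPM. Among the lists of markers of other cells, the dendritic list summed to 80.2 to 350 CPM in the uneducated groups and 31.6 to 155 CPM in the educated ones. H2-Ab1 averaged 157 and 135 CPM in WT and NKG2A KO uneducated cells. In WT NKG2A+, WT Ly49C/I+ and NKG2A KO Ly49C/I+ cells it averaged 50.5, 48.7 and 22.4 CPM. Zbtb46 of the same list did not fall in this way. Its means were 23.1 CPM in WT uneducated, 22.8 in WT NKG2A+ and 39.3 in WT Ly49C/I+ cells (NKG2A KO 24.4 against 30.9). Xcr1 averaged 3.29 CPM in WT uneducated cells against 1.33 and 0.244 CPM in NKG2A+ and Ly49C/I+ cells (NKG2A KO 2.08 against 0.427), and Flt3 2.04 against 0.471 and 0.693 CPM (NKG2A KO 3.04 against 0.176). Clec9a averaged 0.688 CPM in WT and 1.11 CPM in NKG2A KO uneducated cells and 0.0200 CPM or less in educated ones, and Siglech 0.837 CPM or less in every group. The erythroid list summed to 180 to 1260 CPM in uneducated and 399 to 2535 CPM in educated libraries. The endothelial list summed to 178 to 346 CPM in uneducated and 121 to 218 CPM in educated libraries, nearly all of it Pecam1, with Cdh5 and Emcn at or near 0. Mcpt8, a basophil protease, averaged 32.5 CPM in WT uneducated cells and 8.75 and 6.46 CPM in WT NKG2A+ and Ly49C/I+ cells, and 21.5 against 2.07 CPM in NKG2A KO mice. Cpa3 of mast cells and basophils averaged 11.9 against 4.03 and 1.73 CPM (NKG2A KO 9.00 against 2.85). Cma1 of the same list went the other way, with 55.4 against 114 and 83.3 CPM (NKG2A KO 82.6 against 125). The mast cell and basophil list had a median sum of 139 CPM in WT uneducated libraries. It was 152 in WT NKG2A+ and 117 in WT Ly49C/I+ ones (NKG2A KO 148 against 162). Itga2b of megakaryocytes averaged 4.51 against 0.160 and 0.743 CPM (NKG2A KO 1.93 against 0.476). Pf4 of that list averaged 0.231 against 0.236 and 0.512 CPM (NKG2A KO 0.340 against 0.0118). The epithelial list had a median sum of 259 CPM in WT uneducated libraries (203 to 314), 148 in NKG2A+ (68.1 to 193) and 170 in WT Ly49C/I+ ones (94.8 to 237), and of 215 (140 to 269) and 183 CPM (134 to 275) in NKG2A KO uneducated and Ly49C/I+ ones. Within it Epcam averaged 65.6 against 26.8 and 30.3 CPM in WT and 50.5 against 20.3 CPM in NKG2A KO mice. Cdh1 averaged 171 against 104 and 135 CPM, but 157 against 165 CPM in NKG2A KO mice. Krt18 averaged 4.45 against 9.26 and 2.54 CPM (NKG2A KO 0.982 against 0.106). Krt8 averaged 4.68 against 5.13 and 0.107 CPM (NKG2A KO 0.0700 against 0.0932), and Krt19 8.97 against 1.26 and 0.873 CPM (NKG2A KO 0.0792 against 0). The neutrophil list reached 124 CPM in 1 WT uneducated library and had a median of 14.6 CPM or less in every group. The stromal and decidual list had a median of 32.7 CPM in WT uneducated and 8.21 CPM in WT NKG2A+ libraries, where it reached 888 CPM. Its Prl8a2 averaged 191 CPM in WT NKG2A+ cells and 23.5 CPM or less in the other groups. The part of these markers in the levels below was not tested, and in sorted bulk samples fewer cells of a type and less RNA per cell cannot be told apart.

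Every one of the 8 genes had its highest mean level in WT uneducated cells and its second highest in NKG2A KO uneducated cells. Below these, Scin, Basp1, Tdrd9, Tmem40 and Bri3bp had the order WT NKG2A+, WT Ly49C/I+ and NKG2A KO Ly49C/I+. Aqp9 was lowest in WT Ly49C/I+ cells, and Fam178b and Tmsb15a were lowest in WT NKG2A+ cells. Of all neighbours in these orders, only NKG2A KO uneducated and WT NKG2A+ cells for Basp1 did not overlap in the values of their libraries. Per kilobase of exon, the mean level in WT uneducated cells was 229 CPM for Tmsb15a, 82.8 CPM for Basp1 and 76.3 CPM for Scin, against 8.10 CPM for Bri3bp, 7.44 CPM for Fam178b, 7.03 CPM for Tdrd9, 5.04 CPM for Tmem40 and 2.41 CPM for Aqp9. The 8 genes therefore fell into 3 of high and 5 of low level per length in the cells where they were highest.

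**Figure D1:**
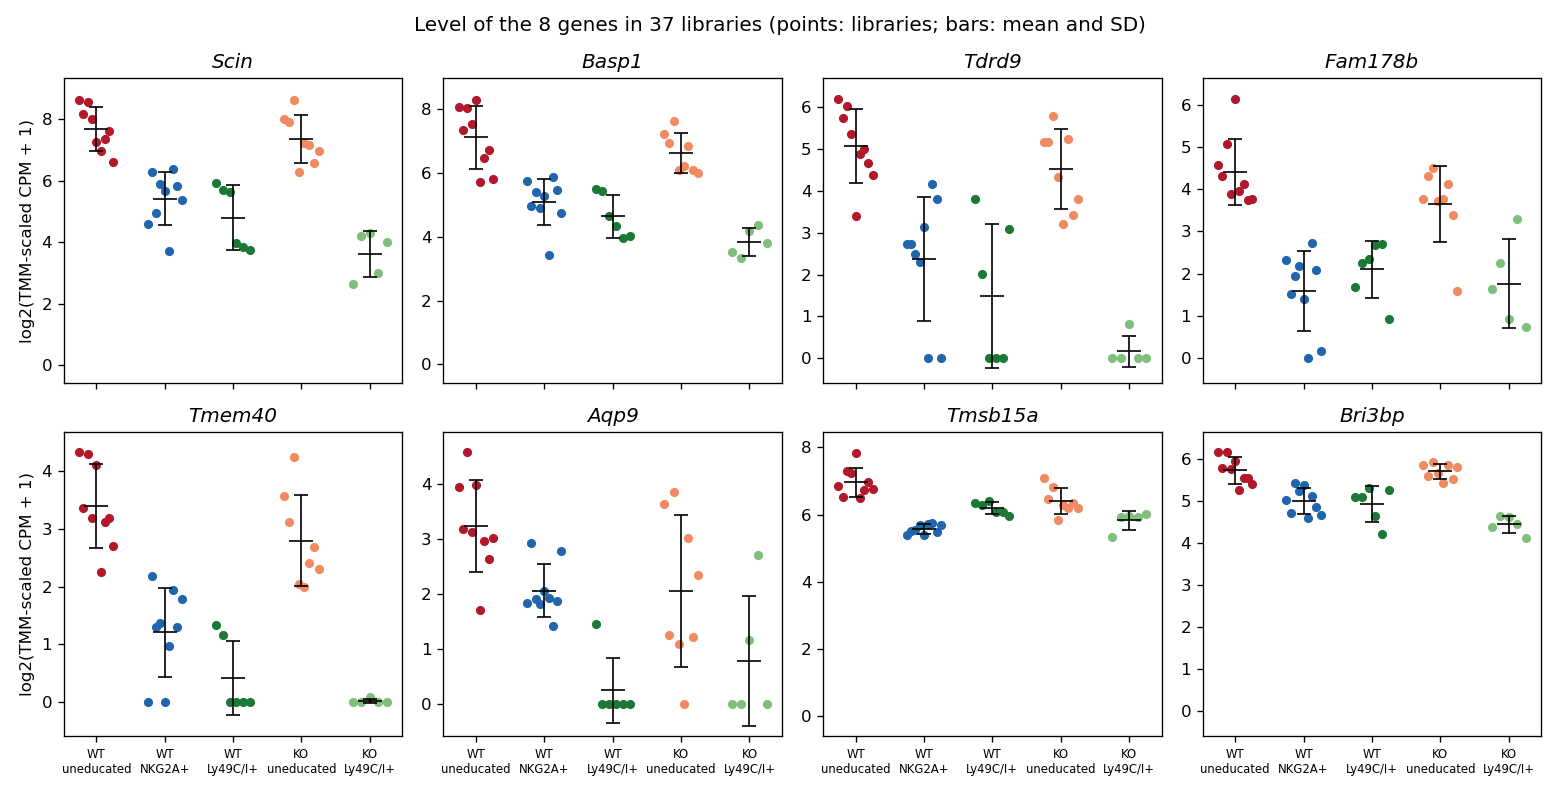
Level of each of the 8 genes as log2(TMM-scaled CPM + 1), with 1 point per library, in the 5 groups (KO: NKG2A KO). Horizontal bars are group means and error bars SDs (n = 9, 9, 6, 8 and 5 libraries). The 2 uneducated groups lie highest for every gene, and points at 0 are libraries without counts, as for Tmem40 in 4 of 5 NKG2A KO Ly49C/I+ libraries.

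Scin, the actin-severing protein, had the highest mean CPM of the 8 in both uneducated groups. It averaged 229 ± 109 CPM (SD, n = 9) in WT uneducated cells, where the lowest library held 97.3, the median 196 and the highest 400 CPM. In NKG2A KO uneducated cells it averaged 186 ± 107 CPM (SD, n = 8), from 77.0 through a median of 146 to 395 CPM. The educated libraries lay lower. In WT NKG2A+ cells Scin ranged from 12.1 through a median of 50.1 to 82.3 CPM (mean 47.8 ± 23.7, SD, n = 9), and in WT Ly49C/I+ cells from 12.3 through 31.6 to 60.2 CPM (mean 33.3 ± 22.1, SD, n = 6). The 5 NKG2A KO Ly49C/I+ libraries held 5.29, 17.3, 18.7, 6.97 and 14.9 CPM. In each genotype no educated library reached the lowest uneducated one. The mean in uneducated cells was 4.79 times that in WT NKG2A+ cells, 6.88 times that in WT Ly49C/I+ cells and 14.7 times that in NKG2A KO Ly49C/I+ cells.

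Basp1 followed a similar course at a lower level. WT uneducated libraries held between 51.6 and 316 CPM with a median of 162 (mean 166 ± 98.8, SD, n = 9), and NKG2A KO uneducated libraries between 62.5 and 198 CPM with a median of 94.6 (mean 107 ± 48.6, SD, n = 8). WT NKG2A+ libraries ranged from 9.82 to 58.1 CPM (median 37.7), WT Ly49C/I+ libraries from 14.4 to 44.0 CPM (median 21.6). The 5 NKG2A KO Ly49C/I+ libraries had 10.5, 9.11, 17.3, 19.7 and 13.1 CPM. Only the NKG2A+ cells overlapped with the uneducated cells of their genotype, through 2 libraries on each side. The highest Basp1 value of all, 316 CPM, was in WT uneducated library 5, the one with few detected genes.

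Tmsb15a, the thymosin, varied little between libraries of the WT educated groups and was counted in all 37 libraries. It averaged 129 ± 43.7 CPM (SD, n = 9) in WT uneducated cells, from 88.6 through a median of 115 to 228 CPM, and 86.2 ± 25.0 CPM (SD, n = 8) in NKG2A KO uneducated cells, from 56.3 through 78.3 to 134 CPM. The WT NKG2A+ libraries lay close together between 40.6 and 53.2 CPM (median 46.0, mean 46.8 ± 4.84, SD, n = 9). WT Ly49C/I+ libraries lay between 60.7 and 84.1 CPM (median 71.6, mean 72.5 ± 9.36, SD, n = 6). In WT mice the 3 groups did not overlap. In NKG2A KO mice the Ly49C/I+ libraries, with 38.9, 60.0, 60.9, 59.3 and 63.5 CPM, overlapped with the lowest uneducated library. The highest value, 228 CPM, again came from WT uneducated library 5, next to 155 CPM in library 3.

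Tdrd9, the piRNA pathway helicase, was counted in all 17 uneducated libraries and in 11 of the 20 educated ones. It ranged from 9.50 through a median of 31.2 to 72.3 CPM in WT uneducated cells (mean 38.1 ± 21.0, SD, n = 9) and from 8.24 through 27.0 to 54.8 CPM in NKG2A KO uneducated cells (mean 26.4 ± 16.5, SD, n = 8). In WT NKG2A+ cells it ranged from 0 through 5.63 to 16.9 CPM, and in WT Ly49C/I+ cells, where 3 of 6 libraries had no count, up to 12.9 CPM. In NKG2A KO Ly49C/I+ cells 4 of 5 libraries had no count and library 6 held 0.765 CPM, which is 13 counts. WT uneducated library 5 had the lowest Tdrd9 of its group (9.50 CPM, next to 19.9 CPM), while it had the highest Basp1, Fam178b and Tmsb15a.

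Fam178b stood between 12.3 and 69.2 CPM in WT uneducated libraries, with a median of 16.3 (mean 23.7 ± 18.3, SD, n = 9). The value of 69.2 CPM belonged to library 5, and the next highest was 32.8 CPM in library 3. NKG2A KO uneducated libraries ranged from 1.98 through a median of 12.7 to 21.6 CPM (mean 13.2 ± 6.03, SD, n = 8). No WT educated library exceeded 5.65 CPM, so that the WT groups did not overlap. In NKG2A KO mice the Ly49C/I+ libraries held 2.10, 3.78, 0.882, 8.81 and 0.651 CPM, and 3 of these 5 were above uneducated library 8 with its 1.98 CPM. The other uneducated libraries lay at 9.39 CPM or above.

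Aqp9, the solute channel, and Tmem40 were the lowest of the 8 per kilobase. Aqp9 ranged from 2.28 through a median of 7.78 to 23.2 CPM in WT uneducated libraries (mean 9.97 ± 6.40, SD, n = 9) and from 0 through 2.73 to 13.6 CPM in NKG2A KO uneducated libraries (mean 5.02 ± 5.19, SD, n = 8). All 9 WT NKG2A+ libraries had Aqp9 counts, at 1.68 to 6.64 CPM (median 2.76), whereas 5 of 6 WT Ly49C/I+ libraries had none and library 1 had 1.72 CPM, from 28 counts. In NKG2A KO Ly49C/I+ cells library 7 held 5.51 and library 6 held 1.24 CPM, and the other 3 had no count. In WT mice 8 of 9 NKG2A+ libraries lay above the lowest uneducated one, library 6 with 2.28 CPM, but only 2 lay above the next lowest (5.23 CPM), and the other 7 uneducated libraries were higher than every NKG2A+ library. Tmem40 ranged from 3.78 through 8.16 to 19.3 CPM in WT uneducated cells (mean 10.8 ± 5.80, SD, n = 9) and from 2.98 through 4.91 to 18.0 CPM in NKG2A KO uneducated cells (mean 7.06 ± 5.15, SD, n = 8). No educated library of WT mice exceeded 3.53 CPM. The 5 NKG2A KO Ly49C/I+ libraries together held 1 Tmem40 count and the 8 uneducated ones 973, a ratio per read of 627 (95% exact interval 112 to 24786, for counting error only).

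Bri3bp varied least between uneducated libraries. It lay between 37.4 and 70.5 CPM in WT uneducated libraries (median 53.6, mean 53.2 ± 12.0, SD, n = 9) and between 41.8 and 59.7 CPM in NKG2A KO uneducated libraries (median 52.2, mean 51.6 ± 6.50, SD, n = 8). In WT NKG2A+ cells it lay between 23.3 and 42.1 CPM (median 31.6) and in WT Ly49C/I+ cells between 17.6 and 38.5 CPM (median 33.0), so that a few libraries overlapped with the lowest uneducated ones. The 5 NKG2A KO Ly49C/I+ libraries held 19.7, 23.9, 23.7, 20.9 and 16.4 CPM, all below the NKG2A KO uneducated libraries. Bri3bp was counted in all 37 libraries.

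The same contrasts were fitted with edgeR over all genes that reached 5 CPM in a share of 0.5 or more of the compared libraries, and the values for these genes are descriptions, since they were chosen on them. In WT NKG2A+ against uneducated cells 7 of the 8 genes passed the filter and all 7 were past the adjusted p threshold of 0.05 and lower, a call that 7.56% of the 9339 genes tested received in that direction. Tmem40 did not pass this filter. In WT Ly49C/I+ against uneducated cells all 8 passed the filter and were called lower, against 5.05% of 9292 genes. In NKG2A KO Ly49C/I+ against uneducated cells 6 passed and were called lower, against 8.99% of 9299 genes, and Tmem40 and Aqp9 did not pass. The filter admits a gene through the group where it is high, and nothing is read from these counts. The first 2 contrasts share the WT uneducated libraries.

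The size of the log2 fold change differed among the genes. Scin was at -2.25 ± 0.32 (SE) in NKG2A+ cells, -2.77 ± 0.43 in WT Ly49C/I+ cells and -3.88 ± 0.43 in NKG2A KO Ly49C/I+ cells. Basp1 had log2 fold changes of -2.18 ± 0.35, -2.65 ± 0.44 and -2.93 ± 0.31 in the same order. Tdrd9 showed -2.56 ± 0.63 and -3.28 ± 0.91 in WT cells, and its -7.42 ± 0.89 in NKG2A KO cells rests on a group with counts in 1 of 5 libraries. Without that library, number 6, it was -11.86. Fam178b had -3.23 ± 0.58, -2.71 ± 0.49 and -2.02 ± 0.60. Without WT uneducated library 5 the first of these was -2.81 and the second -2.28. Aqp9 stood at -1.54 ± 0.38 in NKG2A+ cells and at -5.11 ± 1.05 in WT Ly49C/I+ cells, the latter with counts in 1 of 6 libraries, and Tmem40 at -4.53 ± 0.94 in WT Ly49C/I+ cells with counts in 2 of 6. Leaving out that 1 library put Aqp9 at -10.40, so its size is poorly fixed. Tmsb15a (-1.46 ± 0.16, -0.83 ± 0.19 and -0.60 ± 0.19) and Bri3bp (-0.74 ± 0.15, -0.79 ± 0.20 and -1.30 ± 0.15) had the smallest changes. The call of Tdrd9 in WT Ly49C/I+ cells was lost without uneducated library 1, 2, 3 or 4 or without Ly49C/I+ library 2 or 7. In NKG2A KO cells the call of Fam178b was lost without uneducated library 2 or 3 or Ly49C/I+ library 4, 6 or 8, and that of Tmsb15a without uneducated library 1, 2 or 3 or Ly49C/I+ library 4, 6 or 7. The NKG2A KO Ly49C/I+ libraries were numbered 4 to 8 and the uneducated ones 1 to 8. With the library number as a block in the fit, Scin in NKG2A KO cells was at -3.32 and Tmsb15a at -0.34.

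**Figure D2:**
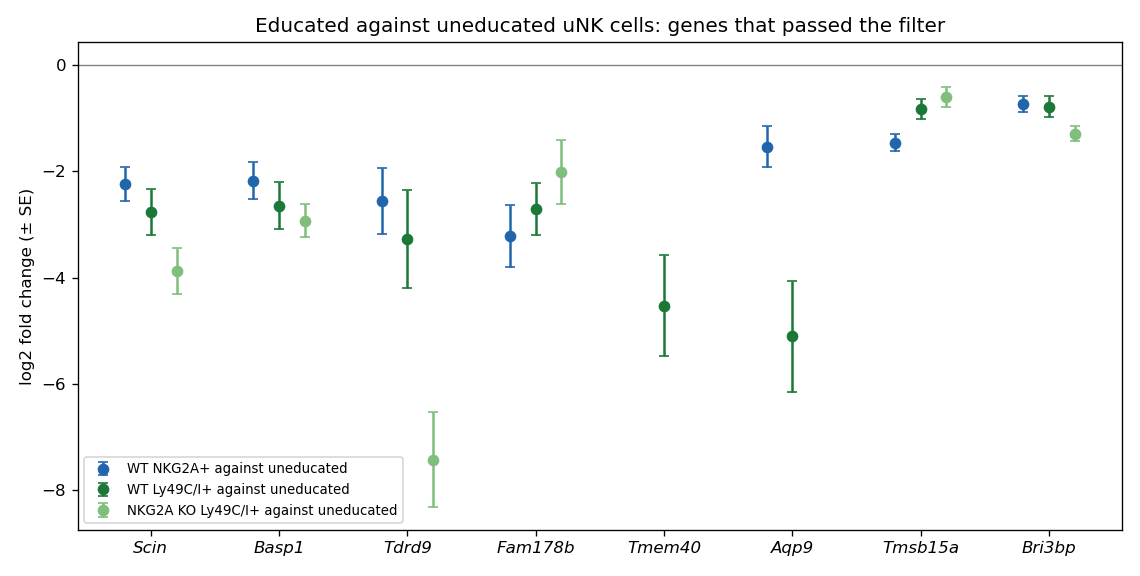
Log2 fold change (points) with its standard error (bars) from edgeR for educated against uneducated uNK cells in 3 contrasts, for the genes that passed the filter in each. All points lie below 0, from -0.60 (Tmsb15a) to -7.42 (Tdrd9, NKG2A KO), and no point is drawn for Tmem40 in 2 contrasts and Aqp9 in 1.

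Libraries without any count of a gene were almost all educated ones. The genes were chosen as falling in educated cells, so this is a description and nothing is read from it. Of the 296 combinations of gene and library, 29 had no count, 28 of them in educated libraries and 1 in an uneducated library (Aqp9 in NKG2A KO library 5). Tmem40 had no count in 10 of 37 libraries (27.0%), Tdrd9 and Aqp9 each in 9 (24.3%), and Fam178b in 1. Scin, Basp1, Tmsb15a and Bri3bp were counted everywhere. Among the 20 educated libraries the shares without counts were 50% for Tmem40, 45% for Tdrd9, 40% for Aqp9 and 5% for Fam178b. A count of 0 allows up to 3 counts, which is 0.159 to 0.226 CPM at the depths of these libraries. The smallest count above 0 in an educated library was 13 for Tdrd9, 21 for Aqp9, 2 for Fam178b and 1 for Tmem40. WT Ly49C/I+ libraries 4, 5 and 7 and NKG2A KO Ly49C/I+ libraries 4, 5 and 8 each had no count for 3 of the 8 genes, namely Tdrd9, Tmem40 and Aqp9. Of these 6 libraries, both libraries numbered 5 are among the 4 with the fewest detected genes.

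The contrast of the 2 educated populations with each other was not itself the rule of choice. The libraries of both had entered the choice of the genes, and the tests were set with earlier results known. The values below are therefore not independent of the choice. In WT NKG2A+ against Ly49C/I+ cells 4 of the 8 genes passed the filter, and 1, Tmsb15a, was called, in a comparison where 2.73% of 9308 genes were called in either direction. The thymosin was lower in NKG2A+ cells (log2 fold change -0.65 ± 0.11, SE; edgeR's quasi-likelihood test, adjusted p = 0.00358), and each of the 9 NKG2A+ libraries lay below each of the 6 Ly49C/I+ libraries. Over all alternatives its adjusted p ranged from 5.39e-06 to 0.0264. Scin (0.50 ± 0.42, adjusted p = 0.563), Basp1 (0.45 ± 0.33, adjusted p = 0.5002) and Bri3bp (0.04 ± 0.19, adjusted p = 0.942) were not called, and their libraries overlapped. Aqp9 did not pass the filter. With a filter of 1 CPM its log2 fold change was 3.54, with an adjusted p of 0.109 from the same test. When Aqp9 was tested alone on the log2(CPM + 1) scale, the mean of NKG2A+ libraries was higher than that of Ly49C/I+ libraries by 1.82 (exact permutation test, two-sided, unadjusted p = 0.0003996, where the smallest p that 5005 splits allow is 0.0001998). This test was run after the values were seen, as 1 of 8 for genes that missed the filter in this contrast or the next. The same exact test gave p = 0.0641 for Tmem40, higher in NKG2A+ cells by 0.79, p = 0.300 for Tdrd9 and p = 0.287 for Fam178b.

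Whether the genes differed between genotypes was examined in both kinds of cells. If NKG2A is absent in the NKG2A KO mice, their NKG2A- gates also take in cells that would have carried it. Same-named groups of the 2 genotypes may then hold different cells. Genotype and sorted cells cannot be told apart in these contrasts or in the interaction. In NKG2A KO against WT uneducated cells 0 of the 8 genes were called, as were 0% of all 9288 genes in edgeR's quasi-likelihood test, with 619 genes at an unadjusted p under 0.05 and 1 gene called by DESeq2. All 8 log2 fold changes were below 0, with a median of -0.62, beside -0.01 over all genes. The high values of the WT uneducated libraries had entered the choice of the genes, so this direction is not independent of it. The largest difference was that of Aqp9 (-1.01 ± 0.64, adjusted p = 0.825) and the smallest that of Bri3bp (-0.05 ± 0.14, adjusted p = 0.962). Tmsb15a had the lowest adjusted p of the 8 (-0.60 ± 0.19, adjusted p = 0.507), and without WT uneducated library 5 its log2 fold change was -0.45. Fam178b moved from -0.87 ± 0.39 (adjusted p = 0.735) to -0.45 without that library. In every one of the 8 genes the libraries of the 2 genotypes overlapped. How often this holds over all genes was not determined, and nothing is read from it.

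In Ly49C/I+ cells of NKG2A KO against WT mice 4 genes passed the filter and 0 were called, beside 0% of 9344 genes by the quasi-likelihood test (1001 at an unadjusted p under 0.05, 84 called by DESeq2). Scin was at -1.41 ± 0.50 (adjusted p = 0.364), Basp1 at -0.94 ± 0.35 (adjusted p = 0.385), Bri3bp at -0.55 ± 0.23 (adjusted p = 0.428) and Tmsb15a at -0.37 ± 0.15 (adjusted p = 0.428). The NKG2A KO libraries here were numbered 4 to 8 and the WT ones 1, 2, 4, 5, 7 and 8. WT libraries 1, 2 and 4 held 60.2, 50.5 and 48.7 CPM of Scin. WT libraries 5, 7 and 8 held 14.6, 13.3 and 12.3 CPM, beside a mean of 12.6 CPM in the NKG2A KO ones. The part of library number in these differences was not tested. For the 4 genes that missed the filter, exact permutation tests gave unadjusted p = 0.182 for Tdrd9, 0.515 for Fam178b, 0.455 for Tmem40 and 0.424 for Aqp9, where 462 splits allow no p below 0.00216. Whether the Ly49C/I+ effect differed by genotype was fitted as an interaction for 6 genes. None of them was called, beside 0% of 9322 genes (414 at an unadjusted p under 0.05, 1 called by DESeq2). Tdrd9 had an interaction of -4.16 ± 1.37 (adjusted p = 0.998, unadjusted p = 0.00497), which without NKG2A KO Ly49C/I+ library 6, the only one of its group with counts, was -8.54. Scin had -1.11 ± 0.58, Bri3bp -0.52 ± 0.24, Basp1 -0.30 ± 0.53, Tmsb15a 0.22 ± 0.27 and Fam178b 0.68 ± 0.74, all with an adjusted p of 0.998.

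Uneducated libraries differed among themselves. In WT uneducated cells the coefficient of variation over 9 libraries was 77.0% for Fam178b, 64.2% for Aqp9, 59.4% for Basp1, 55.2% for Tdrd9, 53.8% for Tmem40 and 47.6% for Scin, against 33.8% for Tmsb15a and 22.5% for Bri3bp. The highest library exceeded the lowest 10.2 times for Aqp9 and 1.89 times for Bri3bp. Much of this variation was shared between genes. In WT uneducated library 3 all 8 genes were above their group means, and in libraries 6, 7 and 9 all 8 were below. In NKG2A KO uneducated cells all 8 were above their means in libraries 1 and 3 and below in library 7. WT uneducated library 5 did not follow this, since 6 genes were above their means there and Scin and Tdrd9 below. By library number, 7, 4, 8, 5 and 6 genes were above their means in WT libraries 1 to 5. In WT libraries 6 to 9 these were 0, 0, 1 and 0 genes. NKG2A KO libraries 1 to 3 had 8, 6 and 8 genes above, and libraries 4 to 8 had 1, 1, 5, 0 and 2. What the numbers stand for is not given in the labels, and their relation to the levels was not tested. The permutation tests below treat the libraries of a group as exchangeable.

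**Figure D3:**
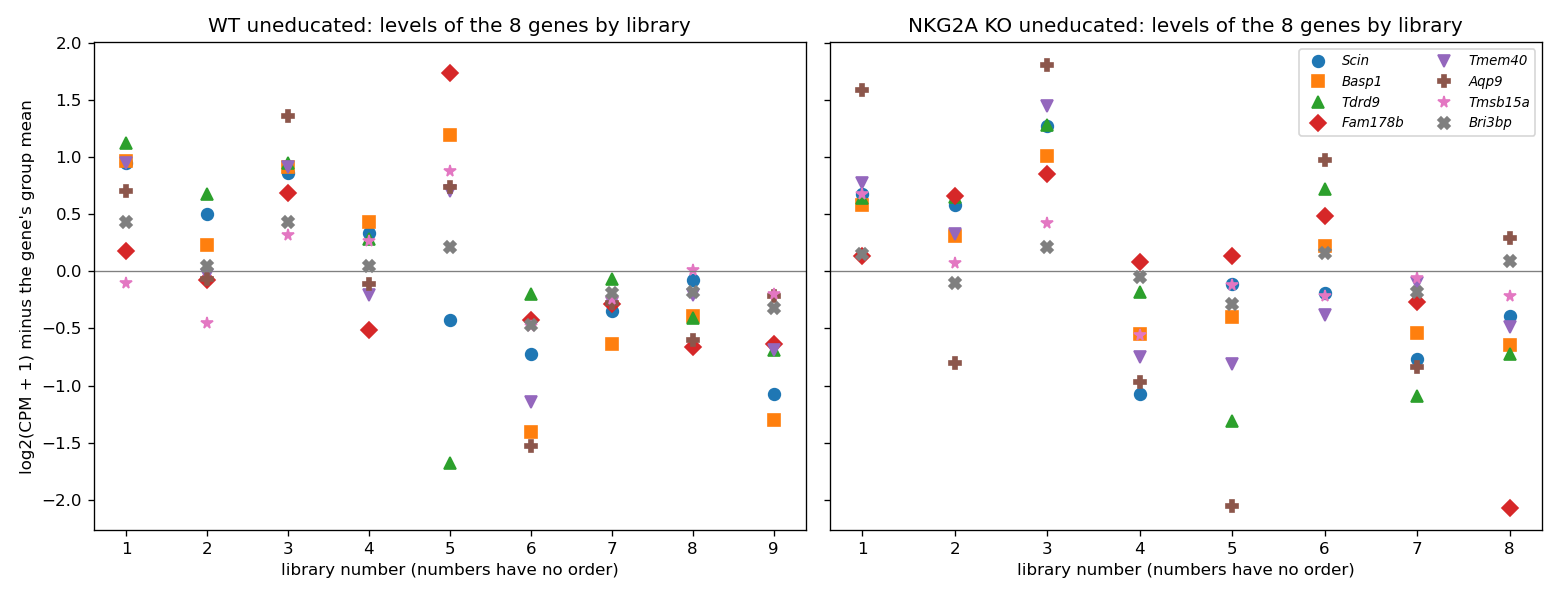
Level of each of the 8 genes in every uneducated library as log2(CPM + 1) minus the gene's mean over its group, WT (left, 9 libraries) and NKG2A KO (right, 8 libraries). The symbols of most genes lie together above or below the line at 0 in a library, while WT library 5 spreads from Tdrd9 at the bottom to Fam178b at the top.

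The covariation was tested for all 28 pairs of genes in each uneducated group, as 56 relations, with two-sided exact permutation tests and Benjamini-Hochberg adjustment over the 56. In WT uneducated cells Pearson's r was above 0 in 26 pairs and below 0 in 2, with a median of 0.69, and 8 pairs were past an adjusted p of 0.05. Over all pairs of the 9987 genes that reached 5 CPM in 8 of the 37 libraries, r was above 0 in 50.3% and its median was 0.004 in these libraries. An r of 0.8 or more was found in 7 of the 28 pairs and in 2.48% of all pairs. All pairs of genes are not matched to the 8 genes, which were chosen for a shared fall in educated cells of these libraries. The part of this choice in the covariation was not tested, here or in NKG2A KO cells. The closest pair was Tmem40 and Bri3bp, with r = 0.97 (n = 9, exact permutation adjusted p = 0.000926), Spearman's rho = 0.97 (exact permutation adjusted p = 0.00926) and r = 0.94 without the 2 libraries farthest from the median. Basp1 with Bri3bp (r = 0.95), Tmem40 with Aqp9 (0.93), Basp1 with Tmem40 (0.93), Aqp9 with Bri3bp (0.92), Basp1 with Aqp9 (0.84), Scin with Bri3bp (0.83) and Scin with Tdrd9 (0.80) were the other 7. For all 8, r stayed at or above 0.74 when the 2 farthest libraries were left out. Here and in NKG2A KO cells, these were the libraries farthest from the median of 1 gene of the pair. That gene was the one named first in the opening list, and libraries outlying in the other gene could stay in. The 2 negative values were those of Tdrd9 with Tmsb15a (-0.42) and with Fam178b (-0.26), neither of which was past the threshold. Both were positive, at 0.33 and 0.85, without the 2 libraries farthest in Tdrd9. Without library 5, which was lowest in Tdrd9, 17 of the 28 WT pairs were past the threshold in place of 8. Among them were Tdrd9 with Scin (r = 0.93), Bri3bp (0.91), Basp1 (0.90), Fam178b (0.86) and Tmem40 (0.84).

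In NKG2A KO uneducated cells r was above 0 in all 28 pairs, with a median of 0.69, and 7 pairs were past the threshold. An r of 0.8 or more was found in 7 of the 28 pairs, beside 1.28% of all pairs of genes, whose median r was -0.001. Aqp9 and Bri3bp were closest, with r = 0.96 (n = 8, exact permutation adjusted p = 0.00648), Spearman's rho = 0.90 (exact permutation adjusted p = 0.0284) and r = 0.95 without the 2 farthest libraries. Scin with Basp1 (0.91), Basp1 with Tdrd9 (0.89), Basp1 with Tmem40 (0.88), Scin with Tmem40 (0.87), Tmem40 with Tmsb15a (0.86) and Scin with Tmsb15a (0.84) were the others, of which Basp1 with Tmem40 held least without the 2 farthest libraries (r = 0.59). By Spearman's rho 3 of the 28 pairs were past the threshold, and 7 in WT cells. Leaving out 1 library at a time gave between 2 (library 2 or 3) and 8 pairs (library 6), so the number of pairs in this group depends on single libraries. The pairs past the threshold in both genotypes were 2, Aqp9 with Bri3bp and Basp1 with Tmem40. Whether any pair differed between the genotypes was not tested. The lowest correlations in NKG2A KO cells were those of Fam178b with Bri3bp (0.03) and Aqp9 (0.11), and Fam178b was the gene with 1 low library in this group.

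**Figure D4:**
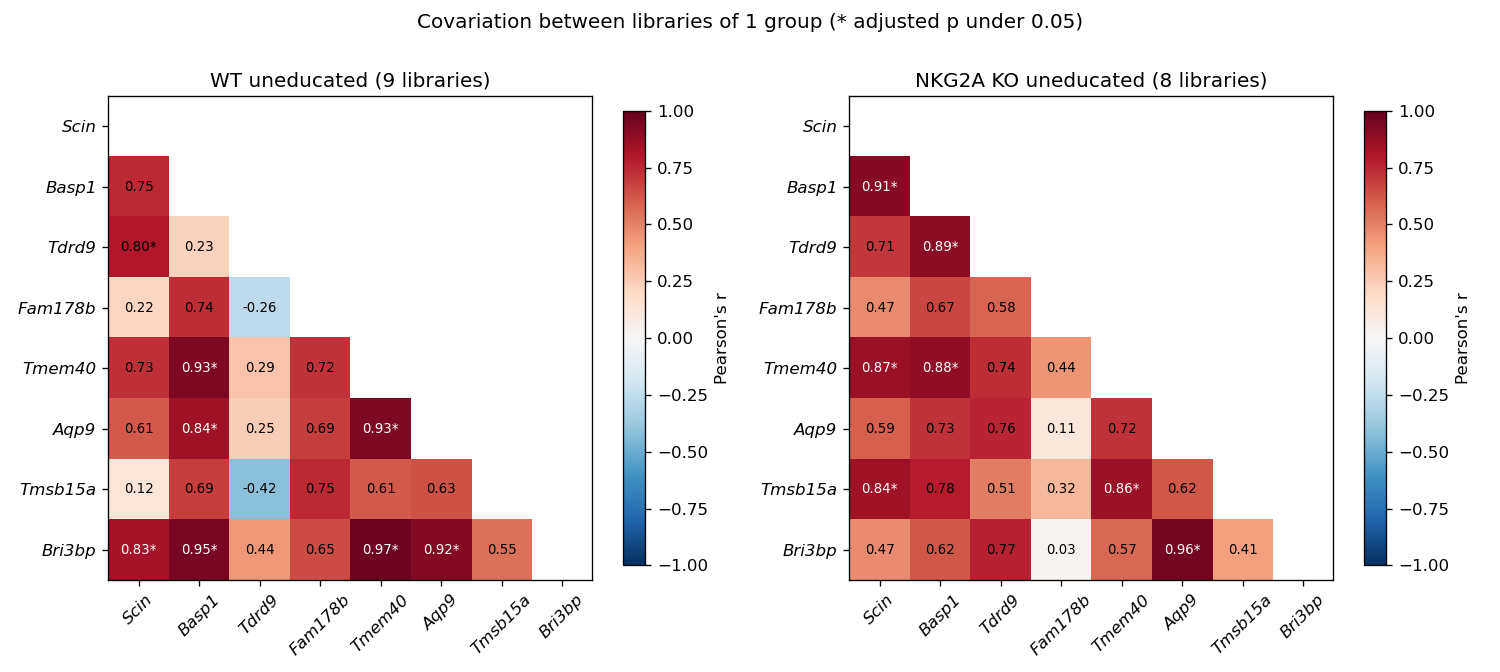
Pearson's r of log2(CPM + 1) between each pair of the 8 genes over the libraries of 1 group, WT uneducated (left) and NKG2A KO uneducated (right), with colour from -1 (blue) to 1 (red) and an asterisk where the adjusted exact permutation p was under 0.05. The values run from -0.42 to 0.97 in WT and from 0.03 to 0.96 in NKG2A KO cells, with 8 and 7 asterisks.

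The shared variation was set against the number of genes detected in each library, as 16 relations. None was past an adjusted p of 0.05. The highest r was that of Tdrd9 in WT uneducated cells, r = 0.84 (n = 9, exact permutation p = 0.00496, adjusted p = 0.0794), with Spearman's rho = 0.68 (exact permutation adjusted p = 0.403) and r = 0.64 without the 2 libraries farthest from the median number of genes. Without these 2, r in WT uneducated cells was positive for all 8 genes, between 0.39 (Tmsb15a) and 0.86 (Tmem40), over 7 libraries. In NKG2A KO uneducated cells r with the number of detected genes lay between -0.44 (Tmsb15a) and 0.000798 (Fam178b).

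Relatives of the 8 genes were taken from a list of 55 genes. The list was drawn up with earlier results of these data known, so the calls of relatives are descriptions. The 2 WT contrasts with uneducated cells share their uneducated libraries and do not count as separate evidence. In the gelsolin family, to which Scin belongs, 5 of 7 listed genes were tested and 3 were called lower in each of the 3 educated against uneducated contrasts, with no member called higher, where 7.56%, 5.05% and 8.99% of all genes tested were called lower. These were Avil, which encodes advillin, Capg, which encodes a capping protein, and Gsn, gelsolin itself. Avil averaged 330 ± 109 CPM (SD, n = 9) in WT uneducated cells, 67.4 ± 31.4 CPM (SD, n = 9) in WT NKG2A+ cells and 86.3 ± 43.4 CPM (SD, n = 6) in WT Ly49C/I+ cells, with log2 fold changes of -2.28 ± 0.24 (edgeR adjusted p = 2.56e-06) and -1.93 ± 0.30 (edgeR adjusted p = 0.00107). In NKG2A KO mice it averaged 232 ± 106 CPM (SD, n = 8) in uneducated and 57.9 ± 24.3 CPM (SD, n = 5) in Ly49C/I+ cells (-1.9996 ± 0.30, edgeR adjusted p = 0.000612). The family members Svil and Flii were tested in each contrast and not called.

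Among 19 further genes of the Tudor and piRNA pathway, 5 were tested in each contrast with uneducated cells, and most of the others had few or no counts. Piwil4, which encodes a PIWI protein that binds piRNAs, was called lower in all 3, with log2 fold changes of -2.18 ± 0.38, -2.89 ± 0.63 and -2.74 ± 0.81 (edgeR adjusted p = 0.000453, 0.00907 and 0.0285). Its mean was 23.5 ± 13.6 CPM (SD, n = 9) in WT uneducated and 21.0 ± 11.2 CPM (SD, n = 8) in NKG2A KO uneducated cells, and 5.12 CPM or less in the educated groups. In the contrasts of educated groups with each other Piwil4 missed the filter. Since the filter admits such a gene through the group where it is high, its calls are a description and nothing is read from them. Piwil2 was called lower in NKG2A+ cells (-1.38 ± 0.41, edgeR adjusted p = 0.0244), and Tdrd3, Tdrd7 and Tdrkh were called in none of the 3. Tdrd1, Tdrd5 and Mov10l1 had no count in any library.

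Other relatives gave less. Of 12 listed thymosins and proteins that bind actin monomers, 8 were tested, and Tmsb4x was called lower in NKG2A+ cells (-0.23 ± 0.07, edgeR adjusted p = 0.0280) and Pfn1 and Cfl1, profilin and cofilin, in NKG2A KO Ly49C/I+ cells. Tmsb15b1, the nearest listed relative of Tmsb15a, averaged between 2.08 and 3.48 CPM in the 5 groups. None of 11 other aquaporins was tested. Aqp8 was counted at a mean of 17.3 ± 22.1 CPM (SD, n = 9) in WT NKG2A+ cells and 1.78 CPM or less in the other groups. Aqp2, Aqp4, Aqp6 and Aqp12 had no count in any library. Bri3, whose protein gave Bri3bp its name, averaged 1.24 to 1.78 CPM in the 5 groups and was not tested. Marcks and Marcksl1, listed with Basp1, were not called in any contrast in which they were tested. Slf2, related to Fam178b, was called higher in NKG2A+ cells (0.60 ± 0.19, edgeR adjusted p = 0.0375). Over the whole list, 22 genes were tested in WT NKG2A+ against uneducated cells, of which 1 was called higher and 6 lower (7.56% of all genes lower), with a median log2 fold change of -0.07 beside 0.01 over all genes tested. In WT Ly49C/I+ cells 4 of 22 were called, all lower (5.05% of all genes; median -0.12, beside 0.00), and in NKG2A KO cells 6 of 21, all lower (8.99% of all genes; median -0.09, beside 0.02).

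The genes whose levels ran most like the 8 were sought over all 37 libraries. The measure was Spearman's rho with the mean of the 8 genes, each scaled to its own SD of log2(CPM + 1), among 9979 other genes that reached 5 CPM in 8 libraries or more. The libraries share their groups, so that rho mostly reflects the difference between uneducated and educated cells, and it is given as a description. The 8 highest were Gzmg (0.97), Ctsg (0.97), Gzmd (0.96), Gzme (0.96), Manf (0.96), Epas1 (0.95), Gm8961 (0.95) and Nme1 (0.95). Gzmg, Gzmd and Gzme encode granzymes, and Ctsg encodes the granule protease cathepsin G. Gzmd averaged 3191 ± 1379 CPM (SD, n = 9) in WT uneducated, 654 ± 256 CPM (SD, n = 9) in WT NKG2A+ and 741 ± 361 CPM (SD, n = 6) in WT Ly49C/I+ cells. Ctsg averaged 101 ± 52.2 CPM (SD, n = 9) in WT uneducated and 2.96 ± 4.33 CPM (SD, n = 5) in NKG2A KO Ly49C/I+ cells. Epas1, which encodes the hypoxia-inducible factor HIF-2 alpha, averaged 69.2 ± 41.8 CPM (SD, n = 9) in WT uneducated and 13.4 ± 8.73 CPM (SD, n = 9) in WT NKG2A+ cells. The granzyme genes lie in 1 cluster of similar sequence, and their reads may be split between copies.

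At the other end, the 4 genes with the lowest rho were Rab37 (-0.91), H2-Q5 (-0.91), Xcl1 (-0.91) and H2-Q6 (-0.90). Xcl1, which encodes a chemokine for cross-presenting dendritic cells, averaged 664 ± 217 CPM (SD, n = 9) in WT uneducated cells and 1190 ± 224 CPM (SD, n = 9) in WT NKG2A+ cells, and 827 ± 208 CPM (SD, n = 8) and 1553 ± 430 CPM (SD, n = 5) in NKG2A KO uneducated and Ly49C/I+ cells. Rab37, a GTPase of secretory vesicles, averaged 90.1 ± 21.8 CPM (SD, n = 9) in WT uneducated and 177 ± 8.42 CPM (SD, n = 5) in NKG2A KO Ly49C/I+ cells. Among the 8 genes themselves, rho with their own mean was highest for Basp1 (0.97), Scin (0.96) and Tmem40 (0.95) and lowest for Tmsb15a (0.76) and Aqp9 (0.74).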

How the data were processed

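Full-length cDNA was amplified from total RNA of sorted uNK cells. The authors trimmed the reads (Trim Galore 0.5.0), mapped them with STAR 2.7.1 to GRCm38 and deposited raw counts per gene for 37 libraries, not normalized. Which program counted them is not given in the sources read. Lines that name no gene (5 a file, 18.9% to 23.6% of reads) were left out. CPM were scaled by TMM. Tests used edgeR 4.0.16 (R 4.3.3), quasi-likelihood with Benjamini-Hochberg adjustment, for genes reaching 5 CPM in a share of 0.5 or more of the compared libraries, with only the compared groups in the fit; standard errors come from the test statistic. The authors' tables used CQN, which was not repeated. Correlations used log2(CPM + 1) and exact permutation tests (scipy 1.17.1, numpy 2.4.6). The code was tested on simulated data. Alternatives were RLE scaling, the likelihood ratio test, DESeq2 1.42.0, other filters, all groups in 1 fit, a replicate block, GC content and length offsets, and libraries left out. Intervals and floors cover counting error only, since reads carry no molecular identifiers. The second label line gave the numbers 1, 2, 4, 5, 7 and 8 of the WT Ly49C/I+ libraries. The 8 genes, the lists and the tests were chosen with earlier results of these data known. Names and positions came from GENCODE M21, in which 52147 of 53700 identifiers have a symbol. The rule for named genes took the 8 genes, their listed relatives, the genes of the sorted receptors, and the 8 genes most and 4 least like them.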

Additional observations from a re-analysis of the deposited data

Results flagged for a closer look

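In 6 of the 40 combinations of gene and group, 1 library stood apart from the others by Dixon's criterion at the 95% level. Chance alone gives about 1 in 20, or 2 of 40, where the values follow a normal distribution. Basp1 was at 9.82 CPM in WT NKG2A+ library 6, next to 25.8 CPM. Fam178b was at 1.98 CPM in NKG2A KO uneducated library 8, next to 9.39 CPM. Tmsb15a was at 38.9 CPM in NKG2A KO Ly49C/I+ library 4, next to 59.3 CPM. The other 3 were single libraries with counts in a group otherwise without any. They were Tdrd9 (0.765 CPM) and Tmem40 (0.0588 CPM, 1 count) in NKG2A KO Ly49C/I+ library 6 and Aqp9 (1.72 CPM) in WT Ly49C/I+ library 1. Such a library is flagged whatever its count, so the expected 2 of 40 does not cover these 3.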

How the results depend on the processing

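Leaving out 1 library at a time gave 7 of the 8 genes called in WT NKG2A+ against uneducated cells, 7 to 8 in WT Ly49C/I+ cells, 4 to 6 in NKG2A KO Ly49C/I+ cells, 1 between the WT educated groups and 0 between genotypes in either kind of cell. For the interaction only the 5 NKG2A KO Ly49C/I+ libraries were left out in turn, and it too gave 0. Pairs of genes past the threshold numbered 6 to 17 in WT and 2 to 8 in NKG2A KO uneducated cells, the latter 3 by Spearman's rho. Bri3bp changed sign between the WT educated groups (-0.080 to 0.12) and between genotypes in uneducated cells (-0.11 to 0.0079), and Fam178b in the interaction (-0.12 to 0.94), none of them called. Same-numbered libraries deviated together with r over 0.1 in 4 of 9 pairs of WT uneducated and NKG2A+ cells (6 of 9 best with their own number), in 4 of 6 of WT uneducated and Ly49C/I+ cells (all from 0.073 to 0.19, median 0.13 beside -0.022 for other numbers, 5 of 6 best with their own) and in 1 of 5 NKG2A KO pairs. Of the NKG2A KO pairs 3 of 5 were best with their own number, and of WT NKG2A+ and Ly49C/I+ pairs 3 of 6. Between genotypes this held for 1 of 8 pairs of uneducated and 1 of 4 pairs of Ly49C/I+ cells. Since not every pair was over 0.1, the numbers were not taken to pair the samples, but this rule cannot exclude a pairing. The main p-values leave out any pairing by number. With the replicate block, NKG2A KO calls among the 8 went from 6 to 4 (Fam178b at -1.99 and Tmsb15a at -0.34) and over all genes from 1519 to 759, the Basp1 interaction went from -0.30 to 0.31 and that of Scin from -1.11 to -0.25, and Scin went from -1.41 to -0.82 between genotypes in Ly49C/I+ cells and from 0.50 to 1.03 between the WT educated groups, none of these called. Counts over all genes moved by over 1.5 times from 864 to 451 without a filter and 1528 with all groups (WT Ly49C/I+), from 1519 to 889 without a filter (NKG2A KO), from 254 to 104 without a filter, 442 by likelihood ratio, 558 by DESeq2 and 156 with GC content and length offsets (WT educated groups), and from 0 to 62, 84 and 18 by likelihood ratio, DESeq2 and all groups (genotypes in Ly49C/I+ cells). In uneducated cells likelihood ratio and DESeq2 each called 1 gene. Aqp9 in NKG2A+ cells was no longer called with all groups in 1 fit, nor Tdrd9 in WT Ly49C/I+ cells without a filter, nor in NKG2A KO cells Fam178b without a filter (adjusted p = 0.0788) and with all groups (0.0507) and Tmsb15a without a filter (0.0896). The causes were not tested. Mean levels by total counts moved by less than 1 SD in all 40 cases. Genes with counts in 1 or 2 libraries of a group have fold changes of poorly fixed size.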
